A study of Mus musculus with 12 samples.

Results

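The members described here are 35 genes of the cell cycle, 13 that act in DNA replication and 22 that act in mitosis. They were taken by symbol, by a rule that uses no measured value, though chosen with earlier results of these data known. All 35 were found among the 26121 genes that stand in both deposited tables. The libraries hold duodenal RNA of C57BL/6N mice, 3 in each of the groups HFD PCN, HFD Vehicle, HFD and Chow. Feeding began at an age of 6 weeks and lasted 18 weeks. The HFD PCN group ate a high-fat diet and was then injected intraperitoneally with 50 mg/kg PCN, which activates the pregnane X receptor of rodents, daily for 4 days. The HFD Vehicle group ate the same diet and received 30% DMSO in corn oil by the same route and schedule. The HFD and Chow groups ate the high-fat diet and regular chow and have no injection in their labels, so HFD Vehicle and HFD differ by the injections as well as by the table that holds them. No genetic alteration is given in the labels. The libraries are numbered, but nothing says that they came from separate animals, and p-values therefore rest on the spread among these samples, which may be technical.

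The lining of the small intestine is renewed by dividing cells in the crypts, where stem cells and their fast-cycling daughters replace the cells shed from the villi. Before S phase, CDC6 loads the MCM complex, a ring of subunits that becomes the replicative helicase, and GINS and cyclin E (Ccne1) help to start it. PCNA then clamps the polymerases to DNA, while ribonucleotide reductase (Rrm1, Rrm2) and thymidylate synthase (Tyms) make the nucleotides. In G2 and mitosis, CDK1 with cyclins A and B, the Polo and Aurora kinases, spindle motors, kinetochore proteins and the anaphase-promoting complex take over, many of them switched on by FOXM1. Many replication genes carry binding sites for E2F factors in their promoters, and many mitotic genes carry a cell cycle homology region (CHR), to which the MuvB complex binds, beside CCAAT boxes.

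These promoter features were looked up in the members, since the choice of members had not used them. RefSeq promoter windows on GRCm38.p6, from 250 bases before to 50 bases after the start, were held for 28 of the 35 members. The E2F words searched were TTCCCGC, its variant TTCGCGC, the word TTGCCGC and its variant TTGGCGC, the CHR words were TTTGAA and its variant TTCGAA, and the CCAAT box was searched as those letters, each on both strands. An E2F word ending in CCAA on the opposite strand can share bases with a CCAAT box, as in Ccnb1. An E2F word stood in 8 of the 12 windows of replication members (66.7%), in 3 of the 18 windows of mitosis members (16.7%) and in 9.57% of all 32851 windows in the table. A CHR word stood in 2 of the 12 replication windows (16.7%), in 14 of the 18 mitosis windows (77.8%) and in 19.2% of all windows. A CCAAT box stood in 9 of the 12 replication windows (75.0%), 16 of the 18 mitosis windows (88.9%) and 37.4% of all windows. These shares count windows, which came from 11 replication and 17 mitosis members. Mcm7 and Prc1 had 2 windows each, and those of Prc1 overlap. Both Mcm7 windows held an E2F word and both Prc1 windows a CHR word. A match describes letters only and is not evidence of a bound site. Shown here are the 250 bases before the start of the 2 replication members and the 2 mitosis members that were most abundant per kb and held the word of their class, 5′ to 3′ on the strand of the gene, with E2F words (Rrm2, Mcm6) or CHR words (Mki67, Top2a) in capitals. The windows lie at chr12:24708004-24708253 (plus strand) for Rrm2, chr1:128359706-128359955 (minus) for Mcm6, chr7:135716380-135716629 (minus) for Mki67 and chr11:99024190-99024439 (minus) for Top2a.
Rrm2: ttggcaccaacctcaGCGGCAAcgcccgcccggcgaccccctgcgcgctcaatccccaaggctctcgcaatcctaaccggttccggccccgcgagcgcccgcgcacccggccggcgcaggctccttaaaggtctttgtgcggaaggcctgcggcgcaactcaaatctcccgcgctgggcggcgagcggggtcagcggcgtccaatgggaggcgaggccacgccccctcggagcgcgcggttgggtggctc
Mcm6: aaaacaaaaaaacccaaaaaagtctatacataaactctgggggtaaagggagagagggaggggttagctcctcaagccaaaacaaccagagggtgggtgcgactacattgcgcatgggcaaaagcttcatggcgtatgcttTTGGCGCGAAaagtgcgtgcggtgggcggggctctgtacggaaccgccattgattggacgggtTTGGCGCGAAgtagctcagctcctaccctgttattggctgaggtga
Mki67: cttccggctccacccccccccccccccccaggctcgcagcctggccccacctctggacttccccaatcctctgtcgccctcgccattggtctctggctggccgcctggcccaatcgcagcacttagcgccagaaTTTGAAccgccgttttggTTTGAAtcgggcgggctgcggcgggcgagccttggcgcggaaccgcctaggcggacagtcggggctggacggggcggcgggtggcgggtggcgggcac
Top2a: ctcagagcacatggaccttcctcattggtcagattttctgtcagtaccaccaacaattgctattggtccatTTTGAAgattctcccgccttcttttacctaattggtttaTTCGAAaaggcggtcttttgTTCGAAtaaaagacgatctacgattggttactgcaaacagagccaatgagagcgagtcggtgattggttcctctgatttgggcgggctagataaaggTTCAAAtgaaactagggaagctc
The Rrm2 window held 1 E2F word, far upstream with its first base at -235 from the start, whereas the Mcm6 window held 4, which overlap in pairs. The Mki67 window held 2 CHR words, at -116 and -98, and the Top2a window held 4.

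**Figure D1:**
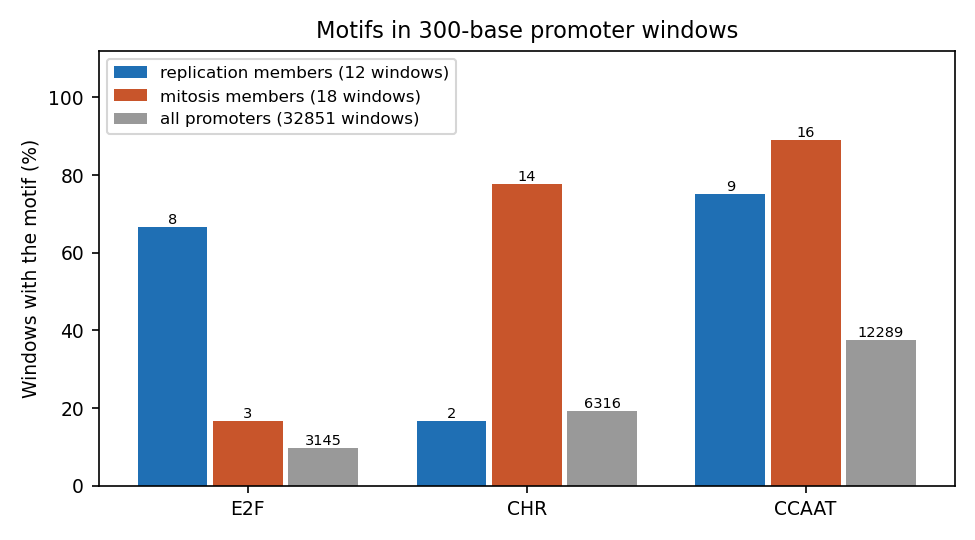
Share of 300-base promoter windows (percent, y axis) that hold an E2F word, a CHR word or a CCAAT box, for 12 windows of replication members, 18 windows of mitosis members and all 32851 windows. The number on each bar counts windows with the motif: E2F words stood in 8 replication and 3 mitosis windows, CHR words in 2 and 14.

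Total counts per library ran between 4676718 (HFD Vehicle 55) and 20684369 (HFD PCN 5), and the members took 0.0518% (HFD 30) to 0.121% (HFD PCN 5) of them. The extraction protocol names liver, so hepatocyte markers were checked: 5 of the 7 listed stood in both tables and summed to 0.687 to 1.76 CPM (counts per 1000000, scaled by TMM over the 12 libraries), with Alb at 0.107 to 1.16 CPM. Enterocyte markers summed to 14115 to 43079 CPM, with the brush border gene Vil1 at 1172 CPM or more. Some libraries stood apart. In HFD Vehicle 23, 33.6% of counts were mitochondrial rRNA, and in the other libraries 8.69% to 19.2%. The 4 heat shock genes of 8 listed that stand in both tables reached 5912 and 4929 CPM in HFD Vehicle 23 and 50 when summed, against 1103 CPM in HFD Vehicle 55 and 695 to 2273 CPM in the other groups. Class medians and the main genes of comparisons with the HFD Vehicle group are therefore also given without HFD Vehicle 23 and 50.

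All 35 members had reads in each of the 12 libraries, and all passed the filter on low counts in each comparison. Per kb of exon, the most abundant member was Mki67, the proliferation marker Ki-67 that coats mitotic chromosomes, with a mean level of 21.0 CPM per kb. Pcna followed at 17.2, Rrm2 at 14.7, Top2a, the topoisomerase that untangles sister chromatids, at 12.3, and Mcm6 at 9.46 CPM per kb. The other MCM subunits lay between 3.03 (Mcm2) and 5.25 (Mcm7) CPM per kb. At the low end stood Ccne1 at 1.13 and the GINS subunit Gins2 at 0.449 CPM per kb, whose lowest count in a library was 12 reads. Bulk samples cannot tell fewer dividing cells from less of these transcripts per cell.

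Among the helicase genes, Mcm2 (ENSMUSG00000002870, chromosome 6, 88883474 to 88898780) had 23.5, 17.1 and 27.4 CPM in HFD PCN 5, 11 and 27, 32.8, 20.7 and 21.7 CPM in HFD Vehicle 23, 50 and 55, 17.3, 10.7 and 24.0 CPM in HFD 4, 30 and 38, and 14.1, 24.2 and 19.5 CPM in Chow 8, 17 and 19. The lowest value was that of HFD 30 and the highest that of HFD Vehicle 23, and the groups overlapped. Mcm6 (ENSMUSG00000026355, chromosome 1, 128331590 to 128359664) had 48.7, 40.3 and 54.0 CPM in the HFD PCN libraries, 54.4, 46.9 and 48.1 in HFD Vehicle, 36.4, 30.7 and 40.7 in HFD, and 32.5, 52.2 and 45.0 in Chow, in the same order of libraries. Each HFD Vehicle value lay above each HFD value. Mcm4 had 24.9, 16.1 and 24.0 CPM in HFD PCN, 19.4, 13.0 and 23.8 in HFD Vehicle, 12.8, 10.5 and 17.9 in HFD, and 14.2, 20.2 and 18.5 in Chow, with overlap between neighbouring groups. Mcm3 ranged over the 12 libraries from 9.27 to 27.0 CPM, Mcm5 from 8.09 to 29.7 CPM and Mcm7 from 15.0 to 40.4 CPM. HFD 30 was the lowest library for all 6 MCM subunits and HFD Vehicle 23 the highest for 5 of them, all but Mcm4.

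The loading factor Cdc6 had 7.03, 6.70 and 6.87 CPM in HFD PCN, 12.8, 10.3 and 5.96 in HFD Vehicle, 10.3, 8.21 and 6.34 in HFD, and 5.12, 7.96 and 6.86 in Chow. HFD Vehicle 23 and 50 were at the high end, and HFD Vehicle 55 lay below each HFD PCN library. Pcna (ENSMUSG00000027342, chromosome 2, 132249162 to 132253314), the sliding clamp, had 49.8, 45.2 and 51.7 CPM in HFD PCN, 37.0, 37.5 and 47.1 in HFD Vehicle, 29.9, 33.3 and 51.5 in HFD, and 28.9, 44.2 and 39.0 in Chow. It was among the steadiest members, with a highest value 1.79 times its lowest. A processed copy, Pcna-ps2, is listed with 64 and 96 reads in the tables, few beside those of Pcna.

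Rrm2 (ENSMUSG00000020649, chromosome 12, 24708241 to 24714146), the regulated small subunit of ribonucleotide reductase, varied most, with a highest value 8.32 times its lowest. It had 36.0, 66.2 and 73.1 CPM in HFD PCN 5, 11 and 27, 11.6, 19.3 and 47.7 CPM in HFD Vehicle 23, 50 and 55, 38.4, 96.7 and 34.3 CPM in HFD 4, 30 and 38, and 23.7, 26.0 and 16.4 CPM in Chow 8, 17 and 19. Each HFD value lay above each Chow value, while the HFD PCN and HFD Vehicle groups overlapped. Its partner Rrm1, the large subunit, ranged only from 20.5 to 46.6 CPM, so the ratio of Rrm2 to Rrm1 was 0.77, 1.89 and 1.77 in HFD PCN, 0.30, 0.60 and 1.30 in HFD Vehicle, 1.40, 4.72 and 1.05 in HFD, and 0.97, 0.78 and 0.58 in Chow. HFD 30, the library with the lowest value of 28 of the 35 members, had the highest Rrm2. Tyms ranged from 7.21 to 18.5 CPM, Ccne1 from 1.58 to 4.03 CPM and Gins2 from 0.837 to 2.69 CPM. Gins2 shares exon sequence on the opposite strand with Gse1, and the strand setting of the counting is not given in the sources used here. How reads in the shared stretch were counted is therefore not known.

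**Figure D2:**
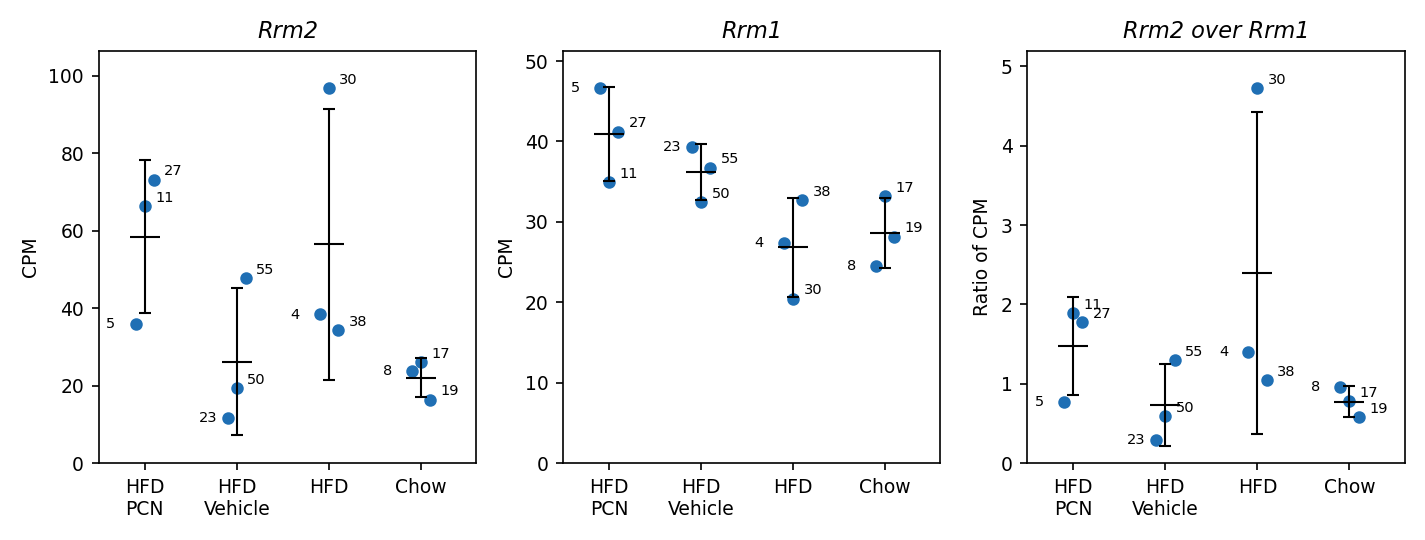
Levels of Rrm2 and Rrm1 (CPM) and their ratio in each library, with library numbers, by group (x axis); bars give the mean and SD of 3 libraries. HFD 30 has the highest Rrm2 at 96.7 CPM and the lowest Rrm1 at 20.5 CPM, and the HFD libraries lie above the Chow libraries for Rrm2.

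Among the mitosis members, Mki67 (ENSMUSG00000031004, chromosome 7, 135689784 to 135716361) had 330, 231 and 231 CPM in HFD PCN 5, 11 and 27, 304, 146 and 248 CPM in HFD Vehicle 23, 50 and 55, 149, 89.2 and 200 CPM in HFD 4, 30 and 38, and 184, 162 and 266 CPM in Chow 8, 17 and 19. Top2a (ENSMUSG00000020914, chromosome 11, 98992943 to 99024189) had 160, 118 and 139 CPM in HFD PCN, 111, 82.0 and 144 in HFD Vehicle, 92.9, 55.5 and 115 in HFD, and 94.1, 97.3 and 122 in Chow. For both, HFD 30 was lowest, HFD PCN 5 was highest and the groups overlapped. Olfm4, a crypt stem cell marker, was also lowest in HFD 30, at 44.5 CPM, and highest in HFD PCN 5, at 269 CPM. Lgr5, another stem cell marker, had other extremes, lowest in Chow 8 at 5.72 CPM and highest in HFD Vehicle 23 at 13.7 CPM. It had 6.80 CPM in HFD 30 and 8.24 CPM in HFD PCN 5.

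The cyclins differed between libraries of the HFD Vehicle group. Ccna2 (ENSMUSG00000027715, chromosome 3, 36564865 to 36572150), cyclin A2, had 47.5, 31.3 and 36.2 CPM in HFD PCN, 16.7, 13.0 and 37.4 in HFD Vehicle, 18.6, 10.7 and 33.5 in HFD, and 18.0, 25.4 and 32.8 in Chow. Ccnb1 (ENSMUSG00000041431, chromosome 13, 100778650 to 100786570), cyclin B1, had 18.3, 8.79 and 10.8 CPM in HFD PCN, 4.00, 2.83 and 13.7 in HFD Vehicle, 6.51, 3.64 and 9.60 in HFD, and 4.76, 4.97 and 9.47 in Chow. For both genes HFD Vehicle 23 and 50 lay below each HFD PCN library, and HFD Vehicle 55 lay within their range. Nusap1, a microtubule-bundling protein of the spindle, had 20.0, 15.4 and 17.6 CPM in HFD PCN, 5.21, 6.51 and 27.4 in HFD Vehicle, 10.8, 11.6 and 16.6 in HFD, and 15.1, 10.2 and 19.2 in Chow. Here too HFD Vehicle 23 and 50 lay below each HFD PCN library, and HFD Vehicle 55 was the highest of the 12. Cyclin B2 (Ccnb2) ranged from 4.40 to 16.2 CPM and their partner kinase Cdk1 from 5.55 to 16.3 CPM over the 12 libraries. Ccna2 shares exon sequence on the opposite strand with Exosc9, and Nusap1 with Oip5.

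Of the checkpoint and chromosome segregation genes, Bub1, a spindle checkpoint kinase, had 14.2, 10.9 and 11.3 CPM in HFD PCN, 7.42, 6.19 and 10.9 in HFD Vehicle, 7.41, 4.69 and 11.8 in HFD, and 8.93, 12.6 and 8.92 in Chow. Birc5, which encodes survivin of the chromosomal passenger complex, had 17.8, 13.8 and 13.8 CPM in HFD PCN, 11.8, 8.01 and 14.5 in HFD Vehicle, 9.88, 7.92 and 12.5 in HFD, and 11.9, 10.5 and 15.0 in Chow. In both, the libraries of neighbouring groups overlapped. The kinetochore motor Cenpe had 51.5, 40.8 and 30.5 CPM in HFD PCN, 55.9, 29.0 and 37.2 in HFD Vehicle, 31.0, 18.9 and 29.0 in HFD, and 39.5, 24.0 and 34.3 in Chow. The kinetochore protein Cenpf had 50.8, 40.5 and 33.5 CPM in HFD PCN, 41.9, 22.5 and 35.6 in HFD Vehicle, 30.8, 17.7 and 29.2 in HFD, and 38.4, 22.2 and 42.7 in Chow. Both were lowest in HFD 30.

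The groups also overlapped for the remaining mitosis members, in the diet and in the PCN comparison. The kinases Plk1, Aurka and Aurkb ranged from 4.28 to 9.44, 4.34 to 14.1 and 4.16 to 11.6 CPM, and the checkpoint protein Bub1b from 11.6 to 23.7 CPM. Cdc20, the activator of the anaphase-promoting complex, ranged from 4.69 to 10.9 CPM and Ube2c, its ubiquitin-conjugating enzyme, from 4.52 to 15.7 CPM. The spindle motor Kif11 ranged from 17.5 to 47.3 CPM, the spindle assembly factor Tpx2 from 7.27 to 22.7 CPM, and the cytokinesis genes Kif20a and Prc1 from 3.75 to 13.9 and 10.4 to 23.3 CPM. The transcription factor Foxm1 ranged from 6.74 to 13.6 CPM. Cdc20, Kif20a, Mcm7, Plk1, Prc1 and Ube2c also overlap a gene on the opposite strand in their exons. On the same strand, Foxm1 shares exon sequence with the protein-coding genes Gm44596 and Tex52, the latter with 1 and 3 reads in the deposited tables. Mcm7 shares it with the microRNA genes Mir25 and Mir93, and Top2a with the small nucleolar RNA gene Gm23451.

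Most members shared the same extreme libraries. HFD 30 held the lowest of the 12 values for 28 of 35 members, 9 of 13 in replication and 19 of 22 in mitosis. HFD PCN 5 held the highest value for 18 members, of which 15 were mitosis members, and HFD Vehicle 23 for 10, of which 6 were replication members. Stem cell markers, 12 of 12 detected in each library, summed to 726 CPM in HFD PCN 5 and as much in HFD Vehicle 23, the highest sums, and to 338 CPM in HFD 30, the lowest. Their part in the members' levels was not tested. Germinal centre B cells also divide. B cell and germinal centre markers summed to 18.6 to 86.4 CPM in HFD PCN, 20.8 to 85.8 in HFD Vehicle, 19.4 to 81.7 in HFD and 30.8 to 74.0 in Chow. Their sum was lowest in HFD PCN 5, and 6 of the 11 listed had reads in each library. The part of B cells in the members' levels was not tested.

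Set against each other, the MCM subunits, a subset chosen after seeing the data, and the mitosis members lay furthest apart on average in the HFD Vehicle group. The full replication class did not set the groups apart in this way. The mean log2 CPM of the 13 replication members was 4.14 ± 0.231 in HFD PCN, 4.04 ± 0.189 in HFD Vehicle, 3.76 ± 0.262 in HFD and 3.82 ± 0.229 in Chow (SD, n = 3 each). That of the 22 mitosis members was 4.27 ± 0.290 in HFD PCN, 3.96 ± 0.489 in HFD Vehicle, 3.67 ± 0.492 in HFD and 3.86 ± 0.186 in Chow. In HFD PCN against HFD Vehicle and in HFD against Chow the means of either class differed by less than the larger SD of the pair. All 13 replication members minus the mitosis members gave -0.38, -0.09 and 0.09 in HFD PCN 5, 11 and 27. This difference was 0.16, 0.40 and -0.30 in HFD Vehicle 23, 50 and 55. It was 0.09, 0.32 and -0.15 in HFD 4, 30 and 38. In Chow 8, 17 and 19 it was -0.16, 0.23 and -0.19, so the groups overlapped. The MCM subunits stood above the mitosis members by 0.13, 0.28 and 0.61 in HFD PCN 5, 11 and 27, by 0.983, 0.997 and 0.158 in HFD Vehicle 23, 50 and 55, by 0.32, 0.52 and 0.35 in HFD 4, 30 and 38, and by 0.29, 0.79 and 0.38 in Chow 8, 17 and 19, on the log2 scale. HFD Vehicle 23 and 50 were the widest of the 12 and HFD Vehicle 55 was near the narrowest, so the HFD Vehicle libraries enclosed those of HFD PCN apart from HFD PCN 5.

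**Figure D3:**
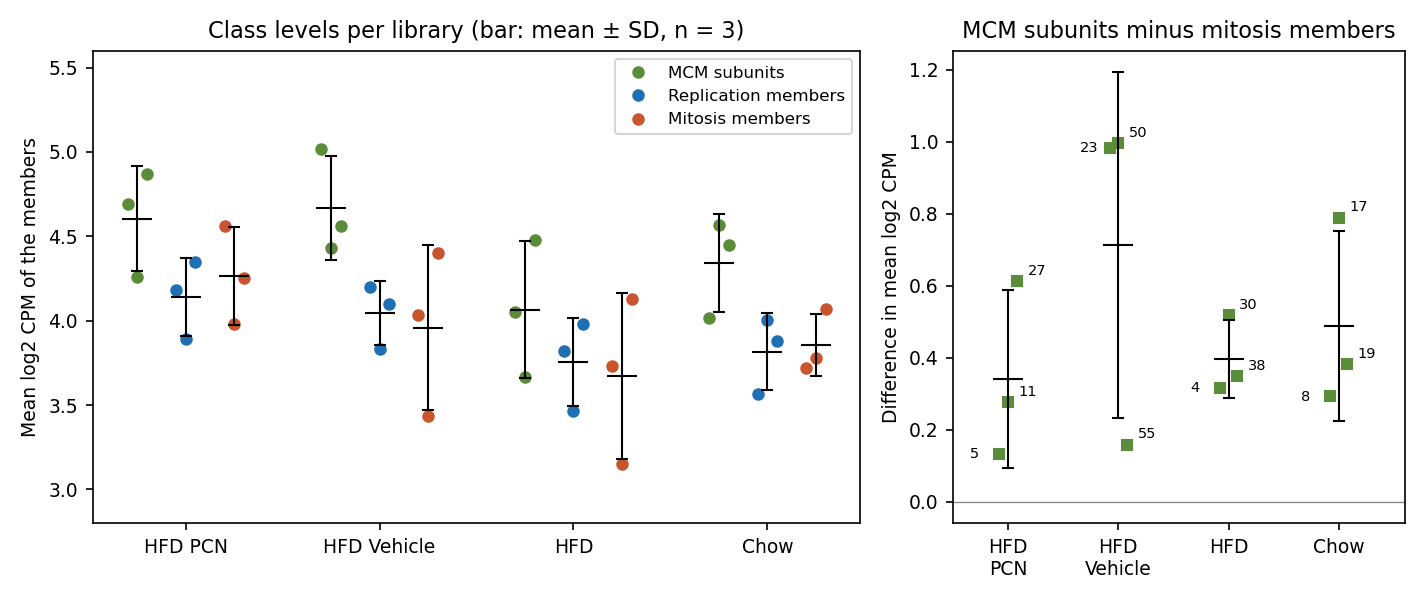
Left, mean log2 CPM of the 6 MCM subunits, the 13 replication members and the 22 mitosis members in each library by group, with mean and SD of 3 libraries. Right, MCM subunits minus mitosis members in each numbered library: HFD Vehicle 23 and 50 lie at 0.983 and 0.997, and HFD Vehicle 55 at 0.158.

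The same HFD Vehicle libraries were high in heat shock genes. The plot of MCM subunits minus mitosis members against these genes shows HFD Vehicle 23 and 50 to the far right with the widest difference and with 4.00 and 2.83 CPM of Ccnb1. At the far left HFD 30, with 695 CPM of heat shock genes, also had low Ccnb1, at 3.64 CPM. Chow 17, the next highest in heat shock genes at 2273 CPM, had the next widest difference at 0.79, while HFD PCN 5, at 2169 CPM, had the narrowest at 0.13 and the highest Ccnb1. Paneth cell markers, 7 of 8 detected in each library, summed to 2658 and 1200 CPM in HFD Vehicle 23 and 50, but only 570 CPM in HFD Vehicle 55 and 261 to 776 CPM in the other groups. The part of heat shock and of Paneth cells in the class difference was not tested.

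**Figure D4:**
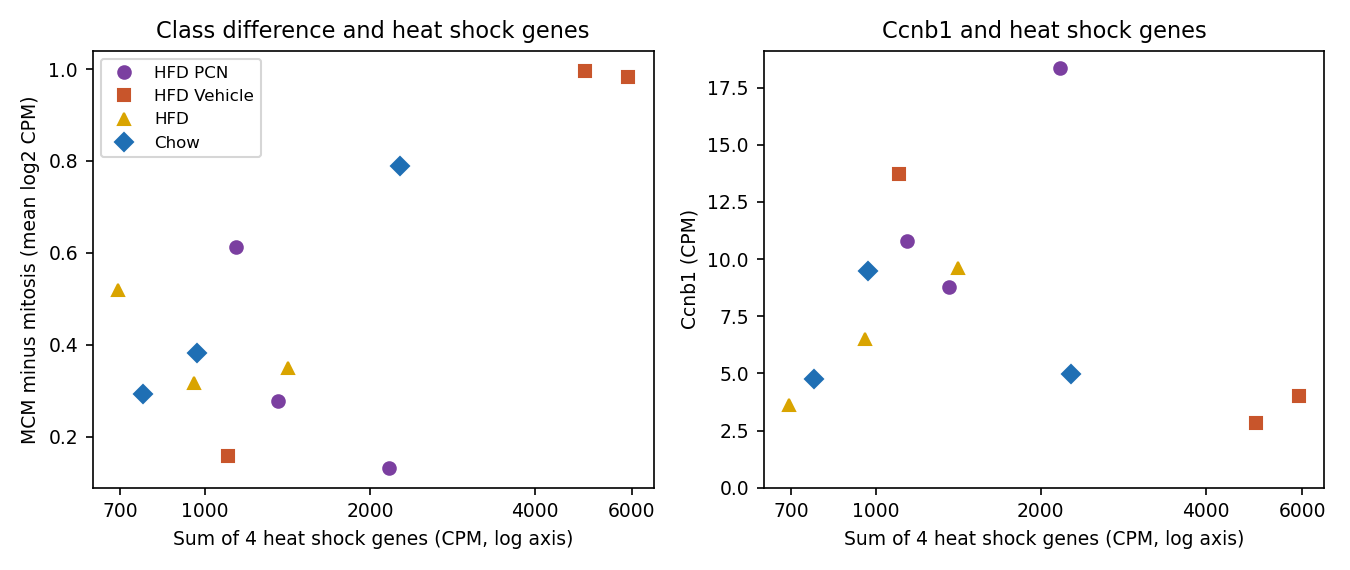
Each point is a library, with the summed level of 4 heat shock genes on a log axis (CPM, x axis), against MCM subunits minus mitosis members (mean log2 CPM, left) and against Ccnb1 (CPM, right). HFD Vehicle 23 and 50, at 5912 and 4929 CPM, combine the widest class difference with 4.00 and 2.83 CPM of Ccnb1. HFD 30, lowest in heat shock genes at 695 CPM, has 3.64 CPM of Ccnb1.

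The diet comparison set HFD against Chow. On the diet, Rrm2 values were higher in each of the 3 libraries, while 26 of the 35 members had negative log2 fold changes of HFD over Chow. All 6 MCM subunits were among these 26, with a median of -0.27, and so was Mki67, at -0.49 with an SE of 0.29. By edgeR's quasi-likelihood test over all genes, 0 of the 35 members passed at an adjusted p under 0.05, where 0.0655% of the 15278 genes tested passed. DESeq2 called 1 member, Rrm2, where 0.477% of all genes passed, and limma-voom 0, where 0.0393% passed. Rrm2 stood at 1.37 on the log2 scale with an SE of 0.42 (edgeR adjusted p = 0.398). It was the only member with an unadjusted p under 0.05, against 10.3% of all genes, and the only one whose groups did not overlap, against 16.3% of all genes, so the members' share lay below the background in both. In the authors' deposited table Rrm2 had a log2 fold change of 0.93 and an adjusted p of 0.0712, the lowest adjusted p of the members there. DESeq2 run here on the same counts gave a larger log2 fold change, 1.35, and the cause of this difference was not tested.

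The replication members had a median log2 fold change of -0.16 (4 positive, 9 negative) and the mitosis members one of -0.17 (5 positive, 17 negative), against 0.00 for all genes tested, of which 49.5% were negative. Besides Rrm2, the replication members with the smallest p were Mcm4 at -0.36 (SE 0.23) and Mcm6 at -0.27 (SE 0.20). Mcm5, Tyms, Mcm3, Mcm2, Rrm1 and Mcm7 lay between -0.40 and -0.09, Ccne1 at -0.38, and Pcna, Gins2 and Cdc6 between 0.03 and 0.29. Among the mitosis members Cenpf stood at -0.44 (SE 0.28), Cenpe at -0.33 (SE 0.24) and Birc5 at -0.32 (SE 0.24), and the cyclins Ccna2, Ccnb2 and Ccnb1 at -0.29, -0.17 and 0.00, the last with an SE of 0.41. Cdk1, Aurkb, Aurka and Ube2c had values of 0.00 to 0.14.

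The signs of many members depended on HFD 30, while 12 members, Mki67, Cenpf, Mcm4, Mcm5 and Mcm6 among them, were negative in each of the 13 alternatives run. Without HFD 30, 22 of 35 members were positive, the medians were 0.08 for replication and 0.13 for mitosis members, 4 of the 6 MCM subunits stayed negative with a median of -0.10, and Rrm2 stood at 0.74 (SE 0.22, edgeR adjusted p = 0.616). Without HFD 38, whose class means were the highest of the HFD group, 32 of 35 were negative, with medians of -0.36 and -0.43. In that fit 0 members passed edgeR's test, where 0.421% of genes passed, and 7 had an unadjusted p under 0.05, against 15.1% of genes. Markers of T and NK cells, which can also divide, summed to 25.6, 77.8 and 42.1 CPM in HFD 4, 30 and 38, against 180, 100.2 and 149 CPM in Chow 8, 17 and 19, and 10 of 10 had negative log2 fold changes with a median of -1.18, 8 of them at an unadjusted p under 0.05 and 0 past edgeR's test. Pancreatic acinar markers were negative in 9 of 9, with a median of -3.17. The part of either in the members' values was not tested.

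The PCN comparison asked how the drug acts on top of the high-fat diet. Cyclins A2 and B1, Bub1 and most other mitosis members had positive log2 fold changes of HFD PCN over HFD Vehicle. The MCM subunits ranged from -0.25 to 0.21, and 5 of the 6 were negative. Ccna2 stood at 0.80 with an SE of 0.37 (edgeR adjusted p = 0.292), Bub1 at 0.59 with an SE of 0.28 (edgeR adjusted p = 0.296) and Ccnb1 at 0.97 with an SE of 0.56 (edgeR adjusted p = 0.358). By edgeR's test 0 of the 35 members passed, where 0.0621% of the 16110 genes tested passed. DESeq2 and limma-voom also called 0, where 1.18% and 0.0559% of all genes passed. Rrm2 was the only member with an unadjusted p under 0.05, against 17.9% of genes, at 1.17 with an SE of 0.49 (edgeR adjusted p = 0.266). Ccne1, with values of 3.32, 3.63 and 4.03 CPM in HFD PCN against 3.21, 2.24 and 2.98 CPM in HFD Vehicle, was the only member whose groups did not overlap, against 19.3% of genes. The authors' deposited table gave Rrm2 0.93 with an adjusted p of 0.272.

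The mitosis members had a median log2 fold change of 0.26 (19 positive, 3 negative) and the replication members one of -0.08 (6 positive, 7 negative), against -0.01 for all genes, of which 49.0% were positive. Birc5 stood at 0.42 (SE 0.27), Ube2c at 0.56 (SE 0.38), Nusap1 at 0.49 (SE 0.56) and Top2a at 0.30 (SE 0.25). The negative mitosis members were Aurkb at -0.36, Bub1b at -0.21 and Foxm1 at -0.12, each within about 1 SE of 0 and none past the test. On the replication side Cdc6 stood at -0.53 (SE 0.30) and Pcna at 0.26 (SE 0.19). Of the MCM subunits only Mcm4 was positive, at 0.21 (SE 0.28), and the median of the 6 was -0.12.

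The value for the mitosis members turned on single libraries of both groups. Without HFD PCN 5 the mitosis median was 0.11 with 13 of 22 positive, and without HFD PCN 11 it was 0.42. Without HFD Vehicle 55 it was 0.45 and 5 of the 35 members passed edgeR's test, when 3697 genes, 22.0% of those tested, passed as well, so the members' share lay below that of all genes. These members were Nusap1 at 1.59, Ccna2 at 1.38, Ccnb1 at 1.91, Rrm2 at 1.91 and Bub1 at 0.84, with edgeR adjusted p of 0.00263, 0.00438, 0.00564, 0.00567 and 0.0397. Without HFD Vehicle 23 and 50 together, so that HFD Vehicle 55 stood alone and was assumed to vary like the other group, the mitosis median was -0.11 with 7 of 22 positive and the MCM median 0.01. There Ccna2 stood at 0.01 (SE 0.26), Bub1 at 0.12 (SE 0.30), Ccnb1 at -0.14 (SE 0.42), Nusap1 at -0.67 (SE 0.25) and Rrm2 at 0.26 (SE 0.41). Without HFD Vehicle 50 alone the mitosis median was 0.01. Enterocyte markers were positive in 13 of 13 (median 0.48), Paneth cell markers negative in 8 of 8 (median -2.61) and the heat shock genes negative in 6 of 6 (median -2.42). T and NK cell markers were positive in 9 of 10 (median 1.01) and summed to 89.8, 100.6 and 60.6 CPM in HFD PCN 5, 11 and 27, against 14.1, 29.2 and 70.5 CPM in HFD Vehicle 23, 50 and 55. Fibroblast markers were negative in 6 of 6 (median -0.97), smooth muscle markers in 6 of 6 (median -0.69) and pancreatic acinar markers in 9 of 9 (median -2.34), and stem cell markers had a median of -0.27. None of these markers passed edgeR's test. Without HFD Vehicle 23 and 50 the medians were 0.13 for enterocyte, -0.77 for Paneth cell, 0.52 for heat shock, 0.27 for T and NK cell, -0.62 for fibroblast, -0.08 for smooth muscle, 0.31 for acinar and -0.07 for stem cell markers. Their part in the members' values was not tested.

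Set against untreated HFD instead, HFD PCN had positive values for 33 of 35 members, with medians of 0.41 for replication and 0.62 for mitosis members and 0.00 for all genes. No member passed edgeR's test there, where 52 genes, 0.325% of those tested, passed. An unadjusted p under 0.05 was found for 14 members, against 18.2% of genes. Mki67 stood at 0.85 (SE 0.28), Rrm1 at 0.61 (SE 0.20), Prc1 at 0.63 (SE 0.22), Mcm4 at 0.65 (SE 0.24) and Ccnb1 at 0.95 (SE 0.38), with edgeR adjusted p of 0.182, 0.182, 0.185, 0.204 and 0.236. Rrm2 had 0.05 (SE 0.46). The injections and the deposited table differ between these groups as well as PCN, and their parts cannot be told apart.

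**Figure D5:**
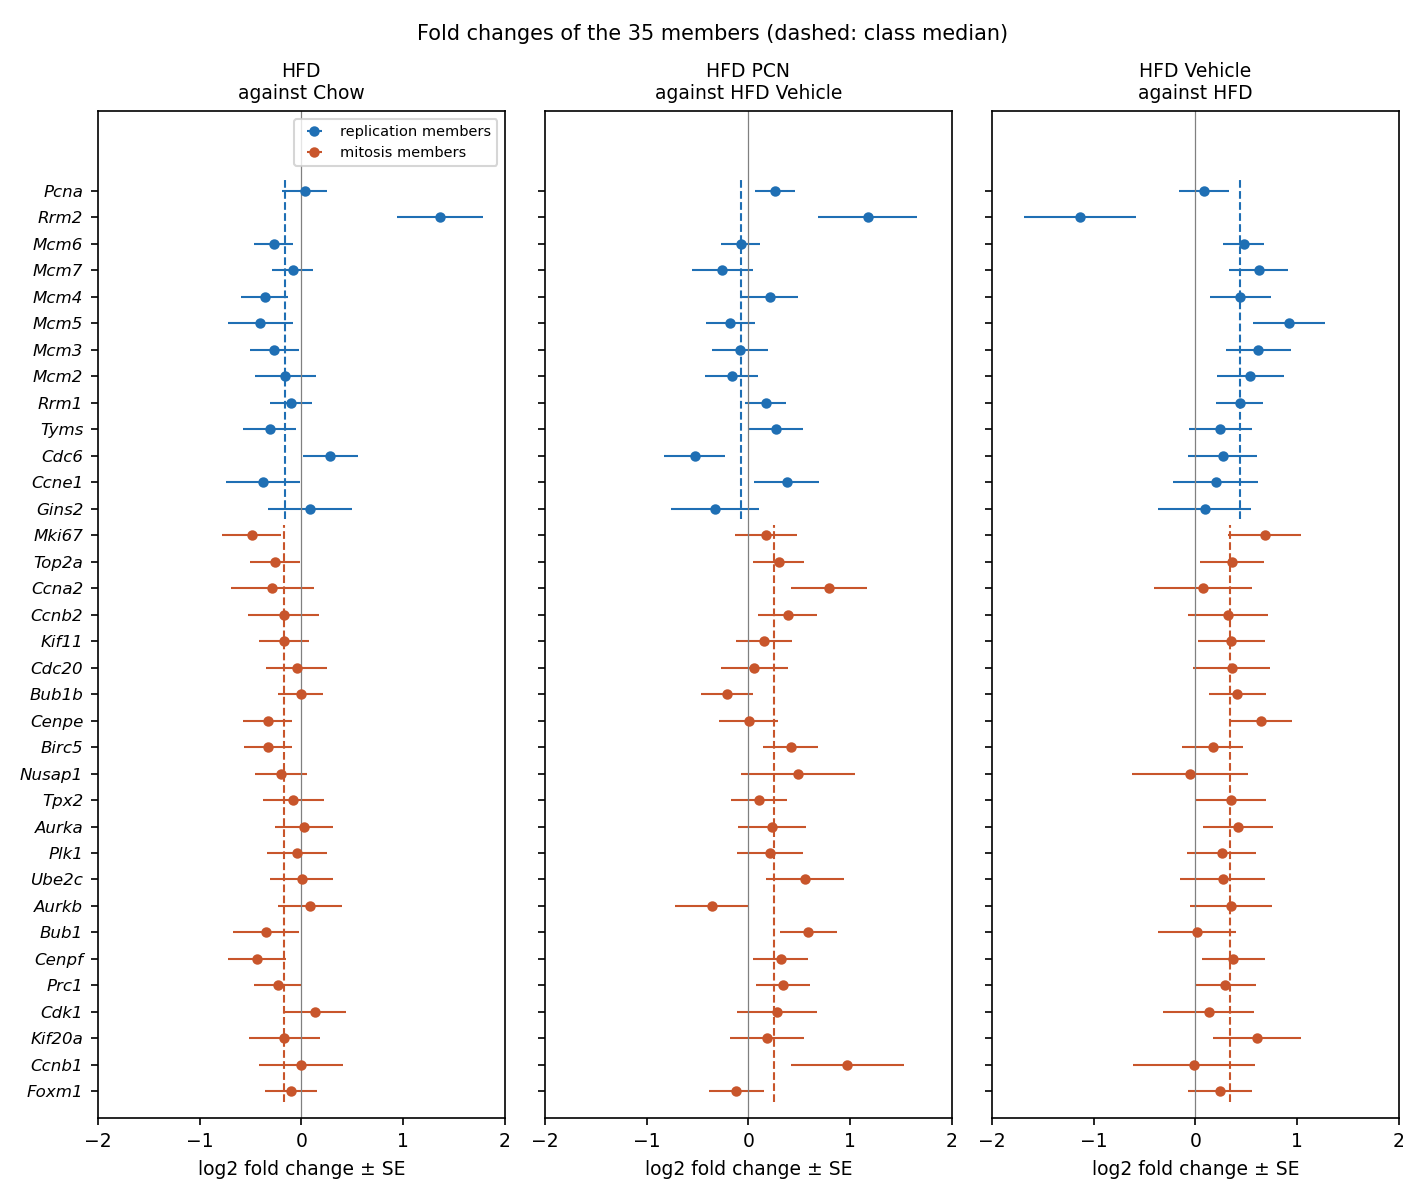
Log2 fold change with its SE (x axis) of the 35 members in HFD against Chow, HFD PCN against HFD Vehicle and HFD Vehicle against HFD, replication members above mitosis members, each ordered by level per kb, with class medians dashed. Rrm2 stands apart from the other replication members in each panel, at 1.37, 1.17 and -1.13.

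HFD Vehicle against HFD placed the groups of the 2 tables side by side. It shares all of its libraries with the comparisons above, so a high HFD Vehicle library lowers the PCN values and raises these. Here 32 of 35 members had positive log2 fold changes, against 50.7% of all genes. The replication members had a median of 0.44, the MCM subunits one of 0.58 with 6 of 6 positive, and the mitosis members one of 0.34. Mcm5, with 29.7, 19.7 and 20.5 CPM in HFD Vehicle against 9.20, 8.09 and 19.6 CPM in HFD, stood at 0.92 (SE 0.36), and Mcm6 at 0.47 (SE 0.20). Rrm2 had the opposite sign to the rest of its class, at -1.13 (SE 0.55). By edgeR's test 0 members passed, as 0.0% of the 16255 genes tested did, with an adjusted p of 0.803 for Mcm5, Mcm6 and Rrm2. DESeq2 and limma-voom called 0 members, where 0.124% and 0.0% of all genes passed. An unadjusted p under 0.05 was found for 2 members, Mcm5 and Mcm6, against 5.86% of genes. The groups did not overlap for 4 replication members, all higher (Mcm5, Mcm6, Mcm7 and Rrm1), and 0 members were lower. Of the 16255 genes, 756 (4.65%) did not overlap and were higher, and a further 857 did not overlap and were lower. The 4.65% therefore counts 1 direction only, unlike the shares given for the diet and PCN comparisons. Overlap was judged on CPM scaled within the 6 libraries compared, and Rrm1 overlapped on the scale of the 12 libraries, at 32.5 CPM in HFD Vehicle 50 against 32.7 CPM in HFD 38. Without HFD 30, 25 of 35 members were positive and the mitosis median was 0.06, while all 6 MCM subunits stayed positive with a median of 0.38. Without HFD Vehicle 23 and 50 the order of the classes turned, with medians of 0.34 for replication and 0.67 for mitosis members, while the MCM subunits had a median of 0.39, Mcm5 stood at 0.74 (SE 0.48) and Mcm6 at 0.44 (SE 0.27). Paneth cell markers were positive in 7 of 7 tested (median 2.20, 7 at an unadjusted p under 0.05), the heat shock genes in 4 of 4 (median 2.45), pancreatic acinar markers in 9 of 9 (median 1.72) and stem cell markers in 9 of 12 (median 0.52), whereas enterocyte markers were negative in 12 of 13 (median -0.24) and T and NK cell markers in 9 of 10 (median -0.53), none past edgeR's test. Without HFD Vehicle 23 and 50 the Paneth cell, heat shock, acinar and stem cell medians were 0.44, 0.28, -0.64 and 0.32. The part of these markers in the members' values was not tested.

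Other genes of the same processes were followed in lists. Of 39 other replication genes, 8 were positive on HFD against Chow (median -0.14), 22 in HFD PCN against HFD Vehicle (0.05) and 31 in HFD Vehicle against HFD (0.25), and 0 passed edgeR's test in any of these. In the diet comparison the primase subunit Prim2 stood at -0.64 (SE 0.26). In the PCN comparison the smallest p belonged to Mcm10, a helicase activator, at -0.93 (SE 0.29), and to Pold1, the catalytic subunit of polymerase delta, at -1.18 (SE 0.39). With HFD Vehicle 23 and 50 left out, Mcm10 stood at -0.09 (SE 0.23) and Pold1 at -0.37 (SE 0.41), and 14 of the 39 were positive. At an unadjusted p under 0.05 there were 2 of the 39 in the diet comparison, 2 in the PCN comparison and 3 in HFD Vehicle against HFD, where the shares of all genes were 10.3%, 17.9% and 5.86%.

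Of 52 other mitosis genes, 17 were positive on the diet (median -0.13), 35 after PCN (0.24) and 47 in HFD Vehicle against HFD (0.23), with 0 past edgeR's test. The condensin subunits Smc4 and Smc2 stood at -0.63 (SE 0.18) and -0.70 (SE 0.26) on the diet. Smc4 averaged 44.7 ± 10.6 CPM on HFD and 69.4 ± 6.10 CPM on Chow (SD, n = 3 each, edgeR adjusted p = 0.330). After PCN, Plk4, the kinase of centriole duplication, averaged 10.5 ± 2.30 CPM, against 31.6 ± 19.0 CPM after vehicle (log2 fold change -1.61, SE 0.45, edgeR adjusted p = 0.231), and the checkpoint gene Mad2l1 stood at 0.69 (SE 0.29). With HFD Vehicle 23 and 50 left out, Plk4 stood at -0.15 (SE 0.33), Mad2l1 at 0.19 (SE 0.27), and 23 of the 52 were positive (median -0.02). Unadjusted p under 0.05 were found for 3 of the 52 in the diet comparison, 4 in the PCN comparison and 1 in HFD Vehicle against HFD, against the same 10.3%, 17.9% and 5.86% of all genes.

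Of 23 G1 cyclin, CDK, E2F and RB genes, 0 passed edgeR's test, while 3, 2 and 2 had an unadjusted p under 0.05 on the diet, after PCN and in HFD Vehicle against HFD, against 10.3%, 17.9% and 5.86% of all genes. On the diet Myc, a growth-promoting transcription factor, averaged 11.3 ± 4.51 CPM on HFD and 25.7 ± 8.34 CPM on Chow, without overlap (log2 fold change -1.21, SE 0.34, edgeR adjusted p = 0.330). Cyclin E2 (Ccne2) stood at -1.18 (SE 0.46) on the diet and at 0.75 (SE 0.29) after PCN, and cyclin D3 (Ccnd3) at -0.77 (SE 0.27) after PCN. Of the 13 cell cycle inhibitor and checkpoint genes 12 were tested and 0 passed, with 2 at an unadjusted p under 0.05 in each of these comparisons, against those shares of all genes. The CDK inhibitor Cdkn2b averaged 18.0 ± 1.40 CPM on HFD and 25.7 ± 0.511 CPM on Chow (log2 fold change -0.50, SE 0.16), and Cdkn1a, the inhibitor p21, stood at 0.46 (SE 0.19) on the diet. After PCN the inhibitor Cdkn2d averaged 0.812 ± 0.499 CPM, against 3.69 ± 1.36 CPM after vehicle (log2 fold change -2.25, SE 0.49, edgeR adjusted p = 0.231), and Pkmyt1, an inhibitory kinase of CDK1, stood at -0.85 (SE 0.35). Without HFD Vehicle 23 and 50, Ccne2 stood at 0.25 (SE 0.32), Ccnd3 at -0.37 (SE 0.31), Cdkn2d at -1.90 (SE 0.70) and Pkmyt1 at -0.90 (SE 0.45) after PCN, none past edgeR's test.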

How the data were processed

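The authors deposited 2 tables of raw counts per gene, 1 of HFD and Chow and 1 of HFD PCN and HFD Vehicle, beside their own fold changes and adjusted p-values. The submitters' processing notes name HISAT2, HTSeq, DESeq2 and the mouse builds GRCm38 and mm10. Versions and the strand setting are not given in the sources used here. Per the labels, mice were C57BL/6N and samples duodenum.

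Counts were tested with edgeR 4.0.16 in R 4.3.3 (filterByExpr, TMM factors, robust quasi-likelihood F-test) on the 6 libraries of each comparison. For HFD Vehicle against HFD the counts of both tables were joined on gene ID. P-values were adjusted over all genes tested by Benjamini-Hochberg, and calls were made at an adjusted p under 0.05. SE is the size of the log2 fold change divided by the root of F, an approximation. Levels are CPM with TMM factors over the 12 libraries on the 26121 shared genes, and log2 CPM uses a prior count of 2. Overlap of groups, and the means of genes in the other lists, use CPM scaled within the 6 libraries compared. The fit was tested on simulated data in which no library stood apart, so that test does not cover libraries such as HFD Vehicle 23 and 50. DESeq2 1.42.0, limma-voom (limma 3.58.1), RLE factors, no filter, 1 fit of all 12 libraries, quality weights, mitochondrial rRNA left out, each library left out, HFD Vehicle 23 and 50 left out together, and untreated HFD as the group set against HFD PCN were alternatives. Rrm2 left out of the replication class, and MCM subunits alone as that class, were alternatives chosen after seeing the data.

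The members and lists were chosen with earlier results of these data known. Values of each library were given for the 3 replication and 4 mitosis members with the smallest p in the diet and PCN comparisons and for Mki67, Pcna, Mcm2, Ccnb1 and Top2a, and of each other list the 2 genes with the smallest p were named. Nusap1, Mcm5 and Ccne1 were given by library after their values were seen. Gene coordinates are GRCm38, the same for 34 of the 35 members in the GENCODE annotation. Some genes that these rules cover are not reported here.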

Additional observations from a re-analysis of the deposited data

How the results depend on the processing

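No paired analysis was possible because each library carries a number of its own and the groups share none. No alternative run gave a member a call in the direction opposite to its reported value. Of the 35 members, HFD against Chow called 1 (Rrm2) without the filter on low counts (1.38, edgeR adjusted p = 0.00017) and 1 (Rrm2) with DESeq2 (1.35, adjusted p = 0.0210), against 0 in edgeR's test with the filter. The shares of all genes called were 1.25% without the filter and 0.477% with DESeq2. In HFD PCN against HFD Vehicle, 19 of the 35 members passed with limma-voom and library quality weights. In that setting 6558 genes, 40.7% of those tested, passed as well, and the mitosis median was 0.68 instead of 0.26. Those weights were 0.282, 4.60 and 0.358 for HFD Vehicle 23, 50 and 55. The replication median of that comparison was 0.41 with untreated HFD as the group set against HFD PCN, and replication minus mitosis was 0.14 without HFD Vehicle 23 and 50 together, instead of -0.33. For HFD Vehicle against HFD that difference was -0.32 without these libraries, instead of 0.10, and the mitosis median was -0.02 with quality weights. Leaving out 1 library at a time gave, for HFD against Chow, replication medians of -0.36 to 0.08, mitosis medians of -0.43 to 0.13, differences of -0.12 to 0.11 and 0 members called. For HFD PCN against HFD Vehicle it gave -0.15 to 0.20, 0.01 to 0.45, -0.54 to -0.10 and 0 to 5 members. For HFD Vehicle against HFD it gave 0.25 to 0.57, 0.06 to 0.58, -0.03 to 0.25 and 0 members. Genes called numbered 10 in HFD against Chow, but 351 with no filter, 134 with DESeq2, 6 with limma-voom, 2 in 1 fit of all 12 libraries, and 4, 5, 6 and 63 without Chow 8, HFD 30, Chow 19 and HFD 38. They numbered 10 in HFD PCN against HFD Vehicle, but 843 with no filter, 339 with DESeq2, 34 in 1 fit, 52 with untreated HFD, 2 without HFD Vehicle 23 and 50, and 5, 0, 0 and 3697 without HFD Vehicle 23, HFD Vehicle 50, HFD PCN 11 and HFD Vehicle 55. In HFD Vehicle against HFD they numbered 0, but 32 with DESeq2, 1 with no filter, 1 in 1 fit, 6 without HFD Vehicle 23 and 50 and 260 without HFD Vehicle 55. The cause of these differences was not tested. Precision is limited by 3 libraries a group and by totals as low as 4676718 counts.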
